A study of Mus musculus with 10 samples.

Results

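A set of 10 genes of brown and beige adipocyte heat production were followed in epididymal white fat, a visceral depot of male mice. They were Ucp1, Ppargc1a, Ppara, Prdm16, Cidea, Dio2, Letmd1, Ckb, Gatm and Elovl3. Each was found by its GENCODE M21 symbol and matched 1 row among the 26040 Ensembl gene identifiers of the count table. Total RNA was sequenced from 5 C57BL/6 mice whose label is an adipocyte-specific knockout of Sucnr1, the gene of the succinate receptor (Ad-Sucnr1 KO), and from 5 C57BL/6 controls with floxed alleles (Sucnr1fl/fl). The libraries are numbered 2 to 6 in each group, as in their titles. The sources used here do not give the driver of the recombinase, the age, the diet or the housing temperature, and they do not say whether litters or cages were matched.

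White fat stores triglyceride, whereas brown adipocytes, and the beige adipocytes that can arise within white depots, burn fuel to make heat. UCP1 lets protons return across the inner mitochondrial membrane without making ATP. Cold acts on fat through noradrenaline and beta-adrenergic receptors, which raise cAMP, and this induces the coactivator PGC-1α, the deiodinase DIO2 and UCP1 itself. A second route, described in mice, spends energy by phosphorylating creatine and releasing the phosphate again. Visceral fat of mice is known as the depot least prone to take on a beige character.

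Sucnr1 itself stood at 3.10 ± 1.01 CPM (counts scaled to a common library size; SD, n = 5) among knockouts against 59.6 ± 17.4 CPM among controls (SD, n = 5), with no overlap. Library totals ranged from 24182798 to 30603326, so that 1 CPM was worth 26 to 29.7 counts. The tissue label held: Adipoq, the adipocyte hormone adiponectin, stood at 1515.5 CPM or more in every library. Markers of other tissues were uneven. Akr1b7, known from the vas deferens, reached 5106 CPM in control library 3, with 807.5 CPM in library 2 of the same group, against at most 13.9 CPM elsewhere. Alb, which liver uses to make albumin, reached 4310 CPM in knockout library 6 and at most 83.1 CPM elsewhere. Control library 6 and knockout library 3 held 8572 and 3574 CPM of Crisp1, an epididymal secretory protein. These libraries are named again wherever they stand apart.

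No gene of the 10 was called different between the groups. Only 7 had enough counts to be tested, and none of the 7 passed an adjusted p of 0.05 with edgeR's quasi-likelihood test, against 0.0608% of all 16446 genes tested (0.0243% higher and 0.0365% lower in the knockout group). At an unadjusted p under 0.05 there were 4 of the 7, namely Letmd1, Ppara, Ckb and Ppargc1a, against 10.1% of all tested genes. DESeq2 called 2 of the 7, Letmd1 and Ppara, both higher in the knockout group, against 1.41% of the 15100 genes it gave an adjusted p. Limma-voom called 0 of the 7, against 0.0547% of all. On simulated data the edgeR test recovered 8% of changes of 1.5-fold and 52% of changes of 2-fold. The simulated set gave 123 calls, against 10 in the data, so the adjusted threshold was easier to reach there. Its changed genes were drawn at random, so these shares need not hold for the genes followed here. Knockouts had the higher mean for 3 of the 7 and the lower for 4, and the median log2 fold change was -0.017, against -0.026 over all tested genes. In whole tissue, fewer cells of a type and less RNA per cell cannot be told apart.

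**Figure D1:**
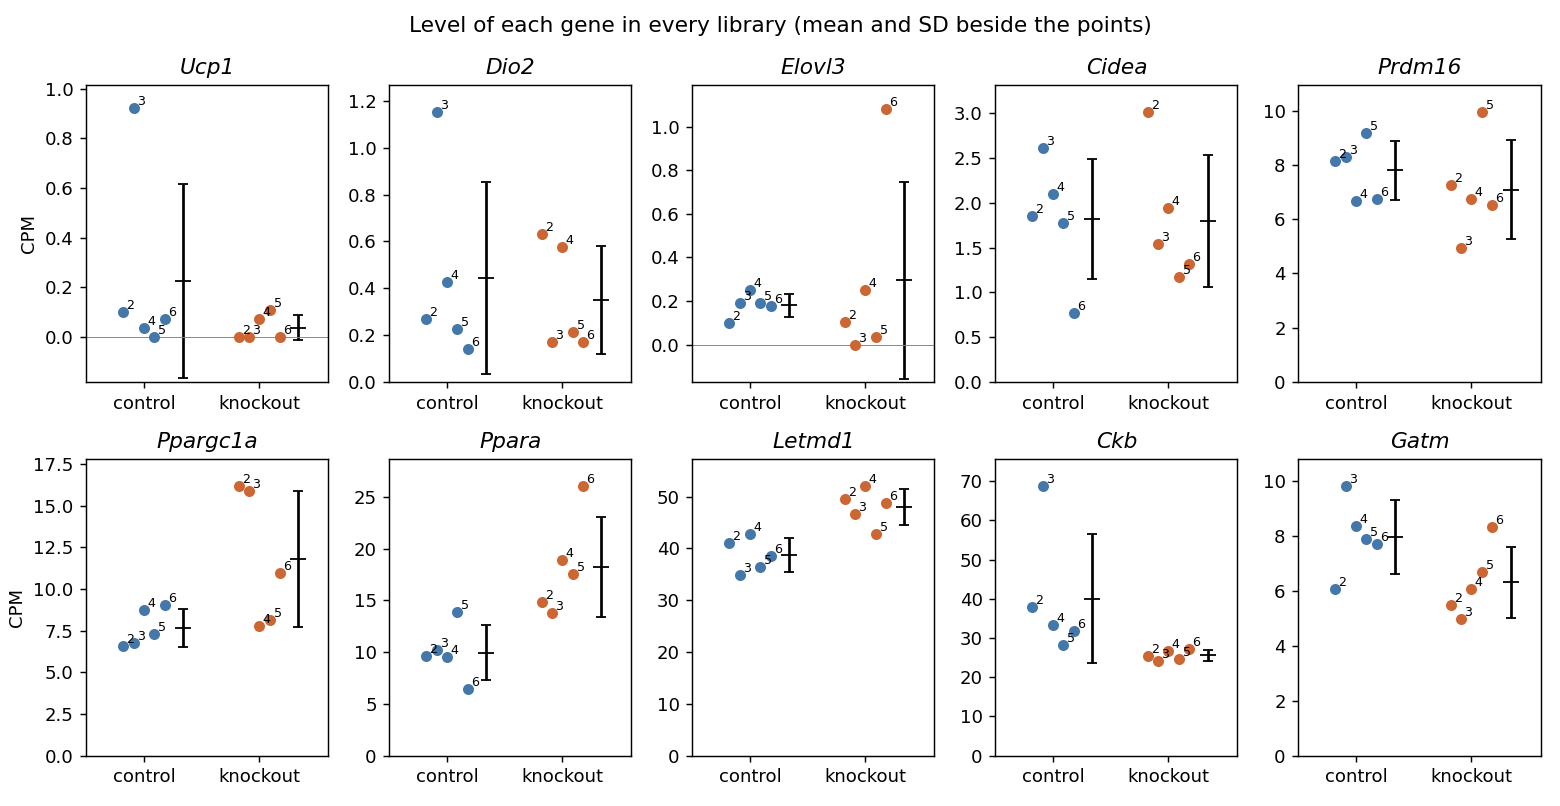
Level of each gene in every library in CPM on linear axes, with library numbers beside the points and the mean and SD (n = 5) to the right of each group. Ucp1, Dio2 and Elovl3 lie below 1.2 CPM in every library, and Ckb is the gene whose groups do not overlap.

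Ucp1 was near zero, and Dio2 and Elovl3, which also mark active brown fat, were low. Ucp1 (ENSMUSG00000031710, chromosome 8, 83290352 to 83298452, plus strand, mm10) was under 1 CPM in all 10 libraries, which is the criterion used for near zero. Its counts were 3, 24, 1, 0 and 2 in control libraries 2 to 6 and 0, 0, 2, 3 and 0 in knockout libraries 2 to 6, or 35 counts in all. Of the 30 control counts, 24 came from control library 3 (0.923 CPM), the library with the most Akr1b7, and no other library passed 0.107 CPM. A count of 0 allows a level of up to 0.102, 0.103 and 0.105 CPM in knockout libraries 6, 3 and 2 and 0.113 CPM in control library 5, where 3 counts set the limit and counting error alone is covered. The exact two-sided permutation test of mean log2 CPM gave p = 0.325, so a difference in Ucp1 was not detected. With no filter on low counts, edgeR gave a log2 fold change of -2.52, with most of the control counts in control library 3. Counts this low do not resolve a small difference.

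Dio2 (ENSMUSG00000007682, chromosome 12, 90724552 to 90738438, minus strand), which turns thyroxine into active triiodothyronine inside the cell, gave 8, 30, 12, 6 and 4 counts in control libraries 2 to 6. In knockout libraries 2 to 6 it gave 18, 5, 16, 6 and 5 counts. Control library 3 was again the highest at 1.15 CPM, and the other 9 libraries lay at or below 0.631 CPM with the groups overlapping (exact permutation p = 0.81). An RNA of a gene that starts beside Dio2 on the other strand overlaps its exons in the annotation and has no row of its own in the count table.

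Elovl3 (ENSMUSG00000038754, chromosome 19, 46131897 to 46135694, plus strand), an elongase of very long chain fatty acids that cold induces in brown fat, gave 3, 5, 7, 5 and 5 counts in control libraries 2 to 6. The knockout libraries 2 to 6 gave 3, 0, 7, 1 and 32 counts. The 32 counts (1.08 CPM) belonged to library 6, the one with 4310 CPM of Alb, and no other library passed 0.252 CPM (exact permutation p = 0.849 over all 10). The exons of Elovl3 overlap those of Pitx3 on the other strand, which reached 0.432 CPM at most. None of the 3 genes passed the filter on low counts. With no filter, edgeR gave adjusted p of 0.604 for Ucp1, 0.864 for Dio2 and 0.806 for Elovl3.

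The windows around the annotated starts are shown for 4 genes, so that the letters can be read beside the levels. Of the genes with a window, Ucp1 and Dio2 had the lowest mean levels per length. Ppara and Ckb were the tested genes with the largest differences upward and downward. Each runs 5′ to 3′ on the gene's own strand from 250 bases before the RefSeq start to 50 bases after it, in build GRCm38.p6. They are chr8:83290098-83290397 (plus) for Ucp1, chr12:90738989-90739288 (minus) for Dio2, chr15:85735526-85735825 (plus) for Ppara and chr12:111672289-111672588 (minus) for Ckb. The RefSeq and GENCODE starts differ for Dio2 and Ppara. The Dio2 window lies wholly upstream of the GENCODE gene, whose start is at 90738438. The Ppara window lies wholly inside the GENCODE gene, whose start is at 85734983. Capitals mark exact matches on either strand to any of 5 motifs. The cAMP response element was searched as TGACGTCA and its half-site as the first 5 of those letters, so that a half-site lies inside every full element. The TATA box was searched as TATAAA. The CCAAT box was searched by the letters of its name. The half-site of nuclear receptors was searched as AGGTCA.
Ucp1: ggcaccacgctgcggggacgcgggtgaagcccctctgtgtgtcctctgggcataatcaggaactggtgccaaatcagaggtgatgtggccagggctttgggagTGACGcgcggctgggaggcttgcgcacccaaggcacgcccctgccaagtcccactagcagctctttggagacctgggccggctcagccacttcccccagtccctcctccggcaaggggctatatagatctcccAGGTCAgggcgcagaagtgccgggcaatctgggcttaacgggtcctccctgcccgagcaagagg
Dio2: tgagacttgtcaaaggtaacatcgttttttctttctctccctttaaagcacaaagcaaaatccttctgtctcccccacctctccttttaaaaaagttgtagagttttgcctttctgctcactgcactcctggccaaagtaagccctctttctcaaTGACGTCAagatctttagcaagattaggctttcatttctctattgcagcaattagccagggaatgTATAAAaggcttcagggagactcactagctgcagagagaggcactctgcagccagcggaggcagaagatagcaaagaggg
Ppara: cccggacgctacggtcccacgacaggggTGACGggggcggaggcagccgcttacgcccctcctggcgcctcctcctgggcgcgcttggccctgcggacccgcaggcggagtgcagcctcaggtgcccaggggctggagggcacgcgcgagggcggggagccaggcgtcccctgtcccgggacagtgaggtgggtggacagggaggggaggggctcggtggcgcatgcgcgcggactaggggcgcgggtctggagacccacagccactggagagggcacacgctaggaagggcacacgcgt
Ckb: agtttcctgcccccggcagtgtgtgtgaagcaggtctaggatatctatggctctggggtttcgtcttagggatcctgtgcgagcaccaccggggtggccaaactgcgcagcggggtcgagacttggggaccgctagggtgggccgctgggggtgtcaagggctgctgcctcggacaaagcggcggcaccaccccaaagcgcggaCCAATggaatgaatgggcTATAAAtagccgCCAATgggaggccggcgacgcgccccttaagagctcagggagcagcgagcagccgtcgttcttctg

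The Dio2 window held a full cAMP response element starting 95 bases before the start and a TATA box at 30 bases before it. The full element was present in 1.79% of 32851 promoter windows of the same length, its half-site in 20.8%, the TATA box in 13.6%, the CCAAT box in 37.4% and the nuclear receptor half-site in 16.3%. The Ucp1 window held a half-site of the cAMP element at 147 bases and one of nuclear receptors at 14 bases before the start, and Ckb held a TATA box and 2 CCAAT boxes. The Ppara window held 1 half-site of the cAMP element and was 74.7% G or C, against a median of 52.7% over all windows, while that of Dio2 was 44.7%. Windows were available for 8 of the 10 genes, without Cidea and Elovl3. A match is a description of letters and was not tested as a site.

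Cidea and Prdm16, linked to the identity of brown and beige adipocytes, were measurable, and neither passed the test between groups. Cidea (ENSMUSG00000024526), a lipid droplet protein of the same family as white fat's Cidec, stood at 1.85, 2.61, 2.09, 1.77 and 0.771 CPM in control libraries 2 to 6. In knockout libraries 2 to 6 it stood at 3.01, 1.54, 1.94, 1.17 and 1.32 CPM. The ranges overlapped almost wholly, with 1.80 ± 0.74 CPM in knockouts and 1.82 ± 0.67 in controls (SD, n = 5 each). The log2 fold change was -0.017 with a 95% interval of -0.80 to 0.77 (edgeR adjusted p = 0.989), so that a change of 1.5-fold either way lies inside the interval.

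Prdm16 (ENSMUSG00000039410, chromosome 4, 154316125 to 154636873, minus strand), a transcription factor that drives the brown fat program, stood at 8.15, 8.30, 6.67, 9.20 and 6.73 CPM in control libraries 2 to 6. It stood at 7.25, 4.93, 6.76, 9.96 and 6.53 CPM in knockout libraries 2 to 6. Both the lowest and the highest library were knockouts. The exons of Prdm16 overlap those of B230104I21Rik on the other strand, which has no row of its own in the count table. The log2 fold change was -0.14 with a 95% interval of -0.54 to 0.26 (edgeR adjusted p = 0.784), and it was -0.034 without knockout library 3 and -0.30 without knockout library 5.

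The nuclear receptor Ppara and the coactivator Ppargc1a stood higher in the knockout group, without passing over all genes. PPARα is activated by fatty acids and turns on genes of their oxidation. Ppara (ENSMUSG00000022383, chromosome 15, 85734983 to 85802819, plus strand) stood at 9.59, 10.2, 9.54, 13.9 and 6.42 CPM in control libraries 2 to 6 and at 14.9, 13.8, 18.9, 17.5 and 26.1 CPM in knockout libraries 2 to 6. The groups overlapped narrowly, since control library 5 (13.91 CPM) lay just above knockout library 3 (13.76 CPM). The means were 18.2 ± 4.8 CPM in knockouts and 9.93 ± 2.67 in controls (SD, n = 5 each), 1.83-fold apart, with a log2 fold change of 0.88 and a 95% interval of 0.38 to 1.37. The edgeR adjusted p was 0.36, the DESeq2 adjusted p was 0.024 and the exact permutation p was 0.0159, where 0.00794 is the smallest that 5 against 5 allow.

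The highest Ppara value belonged to knockout library 6, the one with the most Alb, and liver is known for high Ppara. Hepatocyte markers had higher means in knockouts in 12 of 12 cases, none called by edgeR, but in 2 of 12 without library 6. They had a summed level of 1596 to 9288 CPM in knockouts and 896.8 to 3196 CPM in controls. Ttr was at 0 in control library 2 and knockout libraries 2 and 3, and Cyp2e1, which fat also expresses, alone ranged from 870.2 to 3644 CPM. The part of liver RNA in the Ppara difference was not tested. Without library 6 the knockout mean of Ppara was 16.3 ± 2.4 CPM (SD, n = 4) and the log2 fold change 0.71 (edgeR adjusted p = 0.637). With the white adipocyte marker score as a covariate it was 0.63.

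Ppargc1a (ENSMUSG00000029167, chromosome 5, 51454250 to 51567726, minus strand) encodes PGC-1α, which drives mitochondrial biogenesis. It stood at 6.56, 6.73, 8.72, 7.31 and 9.01 CPM in control libraries 2 to 6 and at 16.2, 15.9, 7.80, 8.11 and 10.97 CPM in knockout libraries 2 to 6. Knockout libraries 2 and 3 lay far above all others, while libraries 4 and 5 lay inside the control range. The log2 fold change was 0.62 with a 95% interval of 0.11 to 1.13 (edgeR adjusted p = 0.436, DESeq2 adjusted p = 0.208, exact permutation p = 0.0635). Knockout libraries 2 and 3 also held more Crisp1 than the other 3 knockouts (971 and 3574 CPM against at most 184 CPM). Control libraries 2 to 6 held 1048.5, 2714.9, 18.8, 137.4 and 8572 CPM of Crisp1. The part of epididymal RNA in this spread was not tested.

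Letmd1 stood higher in the knockout group, with little spread within either group, and was not called by edgeR. It encodes a mitochondrial inner membrane protein that brown fat of mice needs for normal heat production. Letmd1 (ENSMUSG00000037353, chromosome 15, 100469023 to 100479164, plus strand) stood at 41.0, 34.8, 42.8, 36.5 and 38.5 CPM in control libraries 2 to 6 and at 49.5, 46.7, 52.1, 42.7 and 48.7 CPM in knockout libraries 2 to 6. Knockout libraries 2, 3, 4 and 6 lay above every control, and the remaining one, library 5 (42.70 CPM), fell just short of control library 4 (42.76 CPM). The means were 48.0 ± 3.5 CPM in knockouts and 38.7 ± 3.2 in controls (SD, n = 5 each), a 1.24-fold difference with a log2 fold change of 0.31 and a 95% interval of 0.14 to 0.48. The edgeR adjusted p was 0.36, the DESeq2 adjusted p was 0.0214 and the exact permutation p was 0.0159. The estimate stayed between 0.25 and 0.35 over 24 alternatives.

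White adipocyte markers were also higher in the knockout group, in 12 of 12 cases (10 of 12 without control library 6). None was called by edgeR. Their summed level was 42489 to 58499 CPM in knockouts and 26680 to 56042 CPM in controls, lowest in control libraries 6 and 3, and no marker was at 0 in any library. The lowest Ppara value was in control library 6 and the lowest Letmd1 value in control library 3. Without both, the log2 fold change was 0.72 for Ppara and 0.25 for Letmd1 (edgeR adjusted p of 0.411 and 0.412).

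**Figure D2:**
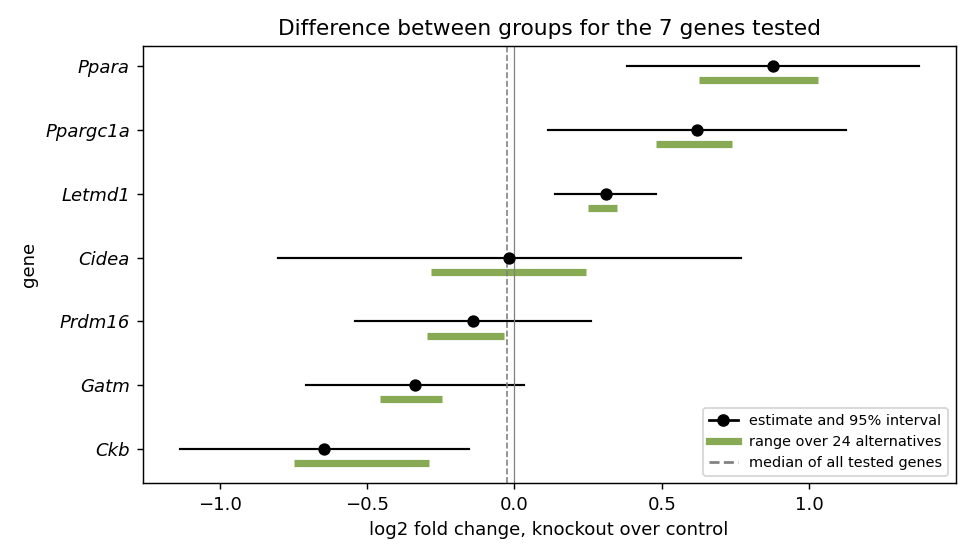
Log2 fold change of knockout over control for the 7 genes tested, with its 95% interval in black, and the range over 24 alternatives in green. The dashed line is the median of all tested genes (-0.026). Ppara, Ppargc1a and Letmd1 lie to the right of 0 and Ckb to the left, and the range of Cidea spans 0.

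Both genes of creatine metabolism stood lower in the knockout group, and neither was called. Ckb encodes the brain-type creatine kinase, which in brown fat of mice serves the cycle of creatine phosphorylation. Ckb (ENSMUSG00000001270, chromosome 12, 111669361 to 111672338, minus strand) stood at 37.9, 68.8, 33.4, 28.2 and 31.8 CPM in control libraries 2 to 6 and at 25.3, 24.1, 26.8, 24.6 and 27.1 CPM in knockout libraries 2 to 6. It was the only one of the 7 tested genes whose groups did not overlap, which 1.91% of all tested genes did. The means were 25.6 ± 1.3 CPM in knockouts and 40.0 ± 16.5 in controls (SD, n = 5 each), with a log2 fold change of -0.65 and a 95% interval of -1.14 to -0.15 (edgeR adjusted p = 0.436). The exact permutation p was 0.00794, the smallest possible.

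The controls were spread by 1 library. Without control library 3 their mean was 32.8 ± 4.0 CPM (SD, n = 4), and the log2 fold change was -0.36 (edgeR adjusted p = 0.56). The lowest control (28.2 CPM) still lay above the highest knockout (27.1 CPM). All 8 of 8 vas deferens and smooth muscle markers had lower means in knockouts, with none called by edgeR. Their summed level was 369.7 to 791.1 CPM in knockouts and 502.6 to 8402 CPM in controls. Akr1b7 was at 0 in control library 4. Control library 3 had the highest sum and the highest Ckb, and control library 2 (1575 CPM) came next in both. The order after these 2 libraries depended on the measure. By sum, control library 5 was next (866.6 CPM) and had the lowest Ckb of the controls. By mean log2 CPM of the same markers, control library 6 was next (4.7974). Control library 5 (3.6462) then lay below knockout libraries 2 (3.9836) and 3 (4.1659). Control library 4, next in Ckb (33.4 CPM), had the lowest mean log2 CPM of any library (3.0445). Without control libraries 2 and 3 the log2 fold change of Ckb was -0.29. The part of smooth muscle RNA in the rest of the difference was not tested.

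**Figure D3:**
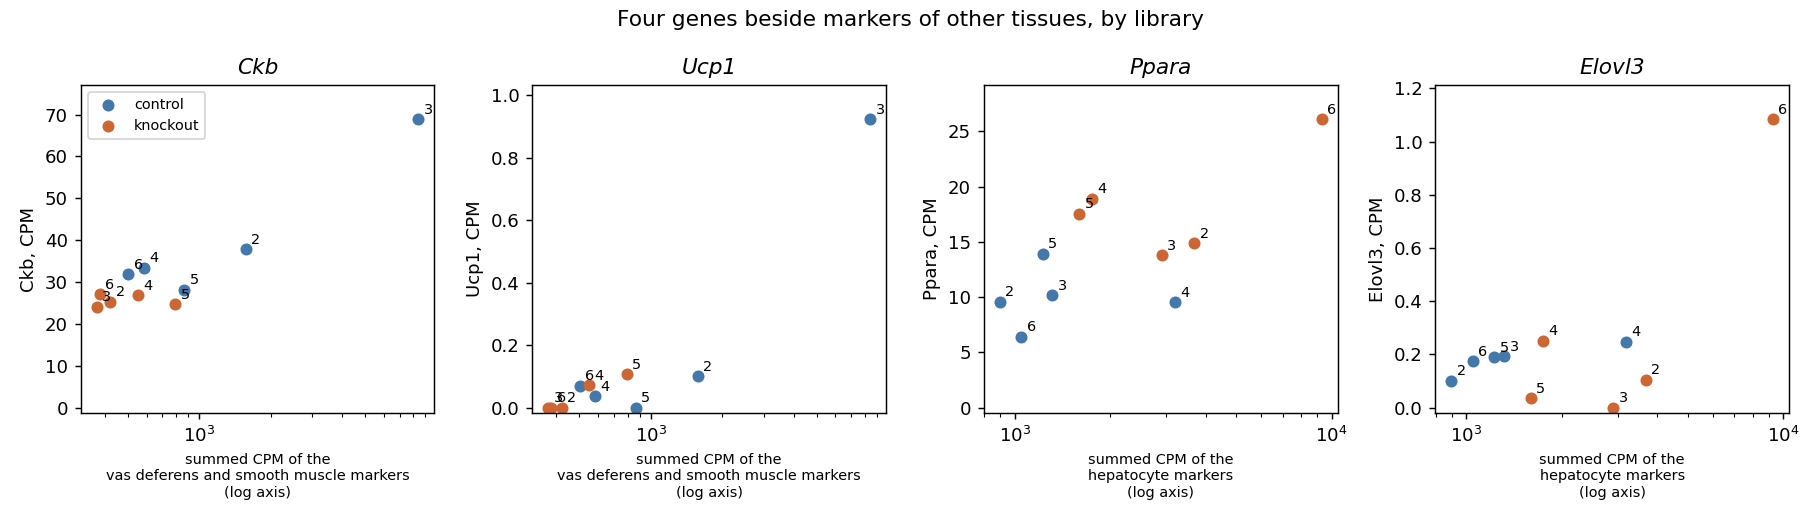
Level of Ckb, Ucp1, Ppara and Elovl3 in CPM on linear vertical axes, against the summed CPM of marker genes of smooth muscle and vas deferens or of hepatocytes on log axes, 1 point per library with its number. Control library 3 stands apart for Ckb (68.8 CPM) and Ucp1 (0.923 CPM), and knockout library 6 for Ppara (26.1 CPM) and Elovl3 (1.08 CPM).

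Gatm (ENSMUSG00000027199, chromosome 2, 122594467 to 122611303, minus strand), which makes the precursor of creatine from arginine and glycine, stood at 6.09, 9.84, 8.37, 7.92 and 7.71 CPM in control libraries 2 to 6. It stood at 5.50, 5.00, 6.08, 6.68 and 8.33 CPM in knockout libraries 2 to 6. Here too control library 3 was highest, knockout libraries 5 and 6 lay inside the control range and the other 3 knockouts lay below the lowest control. The log2 fold change was -0.34 with a 95% interval of -0.71 to 0.033 (edgeR adjusted p = 0.519, exact permutation p = 0.0794). It was -0.26 without control library 3 and -0.46 without knockout library 6.

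Compared per length of exon, the 10 genes spanned a wide range of levels. Levels here are CPM per kb of exon, the mean of 10 libraries with SD. Ckb led with 11.3 ± 4.6 and Letmd1 followed with 8.94 ± 1.2, above 77.6% and 71.4% of all tested genes. Per length, Ckb lay above Letmd1 in all 5 controls (means 13.8 and 7.99) and below it in all 5 knockouts (8.84 and 9.90). That order depended on the division by exon length. In CPM, Ckb lay above Letmd1 only in control library 3 (68.8 against 34.8 CPM) and below it in every other library. Ppara came next (3.67 ± 1.49), below Letmd1 in all 10, and then Gatm (2.38 ± 0.51), which lay below Ppara in 7. Cidea had 1.62 ± 0.60 and Ppargc1a 1.48 ± 0.54, and the order of that pair changed from library to library (6 of 10). Prdm16 (0.799 ± 0.157) lay below Ppargc1a in all 10 libraries. Elovl3, Ucp1 and Dio2 formed the bottom with 0.121, 0.0799 and 0.0683, each spread as widely as its mean or nearly so, and their order was not fixed.

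Relatives of the low genes were measured in the same libraries. Ucp2, a carrier of the same family found in many tissues, had 17.5 CPM per kb of exon and Ucp3 10.5, against 0.0799 for Ucp1. Elovl5 had 24.1 and Elovl6, an elongase of fat synthesis, 8.43, against 0.121 for Elovl3. Elovl4, at 0.0563, lay below Elovl3. The other deiodinases, Dio1 (0.0949) and Dio3 (0.182), stood above Dio2 (0.0683), and of the 3 only Dio3 passed the filter on low counts. Cidec, the droplet protein of white fat, had 1600 CPM per kb of exon, against 1.62 for Cidea. Pparg, the master regulator of adipocytes, had 79.4 against 3.67 for Ppara, and Ppard had 2.96. Among creatine kinases Ckb had the highest mean, and Ckm, Ckmt1 and Ckmt2 had 0.403, 0.362 and 0.201. The mean of Ckm came mostly from control library 3 (9.84 CPM). Control library 2 had 1.35 CPM of Ckm, and every other library at most 0.144 CPM.

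**Figure D4:**
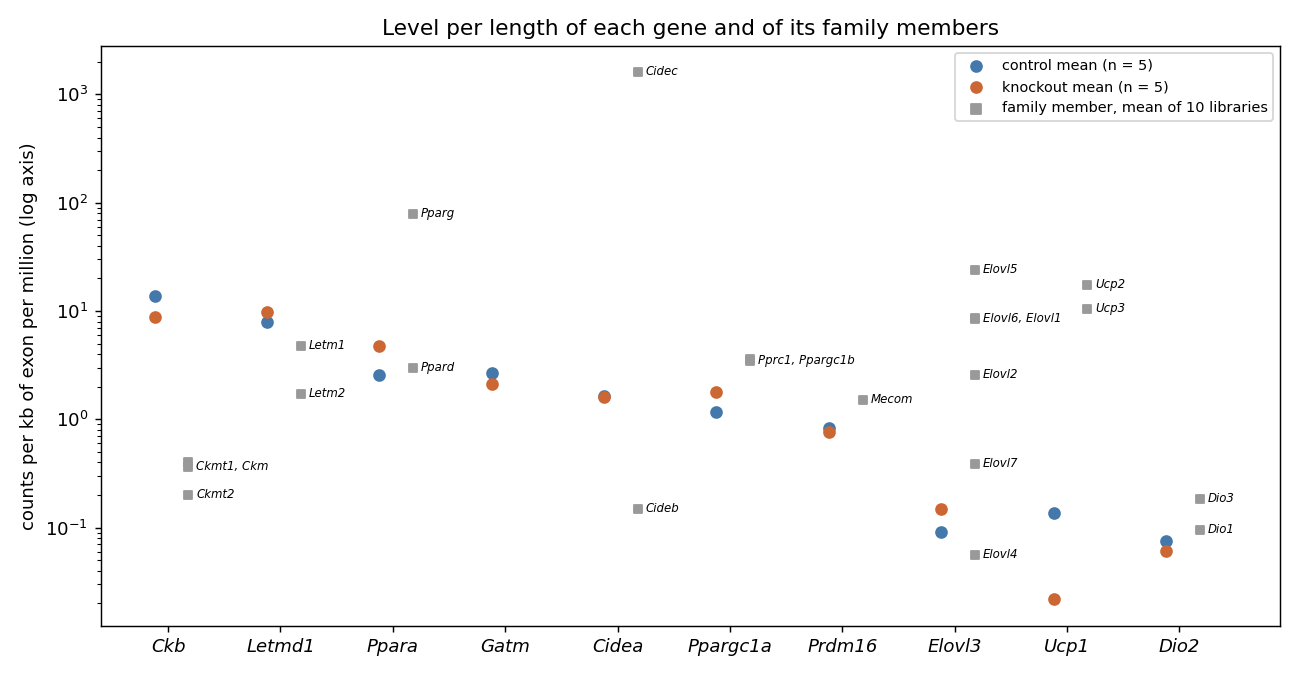
Mean level of each gene in CPM per kb of exon on a log axis, for controls and knockouts (n = 5 each), with family members as grey squares (mean of 10 libraries). Genes are ordered by their mean over all libraries, from Ckb (11.3) to Dio2 (0.0683), and Cidec (1600) is the highest relative shown.

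The 7 tested genes did not vary as a block. Of their 21 pairs, 11 had a positive Pearson r of log2 CPM over 10 libraries, and no pair passed after adjustment over the 21 (smallest adjusted p = 0.229 for r and 0.242 for rho, permutation test with 100000 resamples). Ckb and Letmd1 had r = -0.67 (permutation p = 0.0168) and rho = -0.62 (permutation p = 0.0596), with r = -0.49 without knockout library 4 and control library 3 and -0.29 once group means were taken off. Ppara and Letmd1 had r = 0.64 (permutation p = 0.0476) and rho = 0.59 (permutation p = 0.0806), with r = 0.57 without knockout library 6 and control library 6. Once each group's mean was taken off, that r was -0.075. Ckb and Gatm had r = 0.64 (permutation p = 0.0315) and rho = 0.71 (permutation p = 0.0265), with r = 0.75 without the 2 libraries farthest from the median of Ckb (controls 2 and 3), 0.20 without the 2 farthest from that of Gatm, and 0.42 once group means were taken off. Ppargc1a and Prdm16 had r = -0.66 (permutation p = 0.0419) and rho = -0.62 (permutation p = 0.0604), with r = -0.59 without knockout libraries 2 and 3 and -0.63 once group means were taken off.

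Among tested genes whose mean log2 CPM was not below 0, the patterns most like each gene were found by Pearson r over the 10 libraries, as a description. For Ckb these were Des, the muscle intermediate filament desmin (r = 0.978), and Acer3 (0.975). For Letmd1 they were Stard7 (0.973) and Emc6 (0.971), and for Ppara Gm34408 (0.961) and Mir22hg (0.957). Prdm16 was most like Ripply3 (0.956) and Stxbp4 (0.937), and Cidea most like Dchs2 (0.948) and Dmtf1 (0.915). Gatm was most like Ephx3 (0.924) and Cnp (0.92), and Ppargc1a most like Rassf6 (0.906) and D430020J02Rik (0.902). Each r is the top of a search over many genes with only 10 libraries, where high values can arise by chance. Group means were not taken off, no library was left out, and the r that chance gives was not tested.

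Around these genes, 6 lists of other thermogenic genes held no gene that passed over all genes with edgeR, whose background was 0.0608%. DESeq2 called 2 regulators, 1 beige marker, 1 target of PPARα and 0 genes of each other list, against 1.41% of the 15100 genes it gave an adjusted p. Over all tested genes 44.8% had a log2 fold change above 0. Of 24 transcriptional regulators, all tested, 16 were higher in knockouts and 8 lower (median log2 fold change 0.14). The list holds both activators and repressors, so these counts give no direction for the thermogenic program. The groups did not overlap for 2 of the 24, against 1.91% of all tested genes. Ppargc1b, which encodes PGC-1β, a relative of PGC-1α, stood at 17.8 ± 2.0 CPM in knockouts and 10.8 ± 1.8 in controls (SD, n = 5 each), and its groups did not overlap. Its log2 fold change was 0.71 (SE 0.13; edgeR adjusted p = 0.221, DESeq2 adjusted p = 0.000355). Nrip1, which encodes the corepressor RIP140, a brake on Ucp1 in mice, also separated the groups at 349.6 ± 20 and 286.7 ± 23.9 CPM (edgeR adjusted p = 0.379, DESeq2 adjusted p = 0.0139). Esrra, which encodes the PGC-1 partner ERRα, stood at 36.9 ± 4.7 and 29.2 ± 2.6 CPM (edgeR adjusted p = 0.4). Plac8 stood at 7.26 ± 4.52 CPM in knockouts and 41.9 ± 48.1 in controls (edgeR adjusted p = 0.436), and its log2 fold change went from -2.53 to -1.61 without control library 3 and to -0.69 with the white adipocyte marker score as a covariate.

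The list of beige adipocyte markers held 15 genes, among them the classical brown markers Zic1 and Lhx8. Of the 15, 10 were tested, with 4 higher and 6 lower and a median log2 fold change of -0.23. Slc36a2, an amino acid transporter at the surface of brown and beige fat, stood at 158 ± 49 CPM in knockouts and 80.5 ± 21.4 in controls (edgeR adjusted p = 0.36, DESeq2 adjusted p = 0.0144). Klhl13 stood at 24.2 ± 2.0 and 31.9 ± 6.9 CPM and Ear2 at 15.1 ± 4.8 and 9.52 ± 3.43 CPM. Cited1 reached 30.4 CPM in control library 3, against 6.46 CPM in the next control, and its log2 fold change went from -3.93 to -2.30 without that library. Zic1 and Lhx8 were not tested and had means of at most 0.042 CPM in either group.

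Of 16 brown adipocyte effectors 15 were tested, with 8 higher and 7 lower and a median of 0.051. Acsl5, an acyl-CoA synthetase, had the smallest p, with 56.9 ± 5.5 CPM in knockouts and 65.3 ± 1.8 in controls (edgeR adjusted p = 0.436). Cox8b, a respiratory subunit typical of brown fat and muscle, stood at 3.43 ± 1.22 and 2.48 ± 0.99 CPM, Acot11 at 2.68 ± 0.34 and 4.06 ± 2.17 CPM and Sirt3 at 11.8 ± 2.0 and 10.6 ± 1.0 CPM. The log2 fold change of Cox8b went from 0.46 to 0.22 without knockout library 2, and that of Acot11 from -0.59 to -0.21 without control library 3. Cpt1b, the muscle and brown fat form of the carnitine transferase, was not tested, at 0.287 and 0.28 CPM.

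Of 10 genes of creatine and calcium cycling 6 were tested, with 1 higher and 5 lower and a median of -0.30. The share higher was 16.7%, and it reached 50% both when control libraries 3 and 6 were left out and when the adipocyte marker score was a covariate. Ryr2, a calcium release channel, stood at 3.06 ± 1.09 CPM in knockouts and 8.20 ± 7.80 in controls, and its log2 fold change went from -1.42 to -0.68 without control library 3. Alpl, a phosphatase reported to release phosphate from phosphocreatine in mice, stood at 5.61 ± 3.45 and 15.2 ± 20.5 CPM, and its log2 fold change went from -1.43 to -0.12 without control library 6. Gamt, which completes creatine synthesis, stood at 19.1 ± 8.1 and 25.99 ± 22.8 CPM and Atp2a2, the calcium pump SERCA2, at 237 ± 15 and 263 ± 68 CPM. Gamt reached 65.2 CPM in control library 6, and its sign turned without that library.

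Of 14 upstream receptors and hormones 12 were tested, with 6 higher and 6 lower and a median of -0.0053. Adrb3, the main beta-adrenergic receptor of mouse adipocytes, stood at 505 ± 67 CPM in knockouts and 447 ± 134 in controls (edgeR adjusted p = 0.755). Npr1 stood at 59.6 ± 5.0 and 66.9 ± 13.0 CPM and Bmpr1a at 158.6 ± 7.4 and 166.6 ± 7.9 CPM. Values in these lists are means with SD over n = 5 libraries, knockouts first.

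Of 16 target genes of PPARα, all tested, 14 were higher in knockouts (87.5%; median log2 fold change 0.33). Without knockout library 6, the one with the most Alb, 50% were higher, and 56.3% were with the white adipocyte marker score as a covariate. Acot2, a mitochondrial acyl-CoA thioesterase, stood at 44.9 ± 8.2 CPM in knockouts and 29.9 ± 5.0 in controls (SD, n = 5 each; edgeR adjusted p = 0.36, DESeq2 adjusted p = 0.0363) and kept a log2 fold change of 0.54 without that library, against 0.59 with it. Cpt2, an enzyme of mitochondrial fatty acid oxidation, stood at 87.3 ± 14 and 60.8 ± 12.1 CPM, and Acot1 at 19.3 ± 5.4 and 14.4 ± 2.5 CPM. Cyp4a10 reached 78.3 CPM in knockout library 6, against 1.64 CPM in the next knockout.

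**Figure D5:**
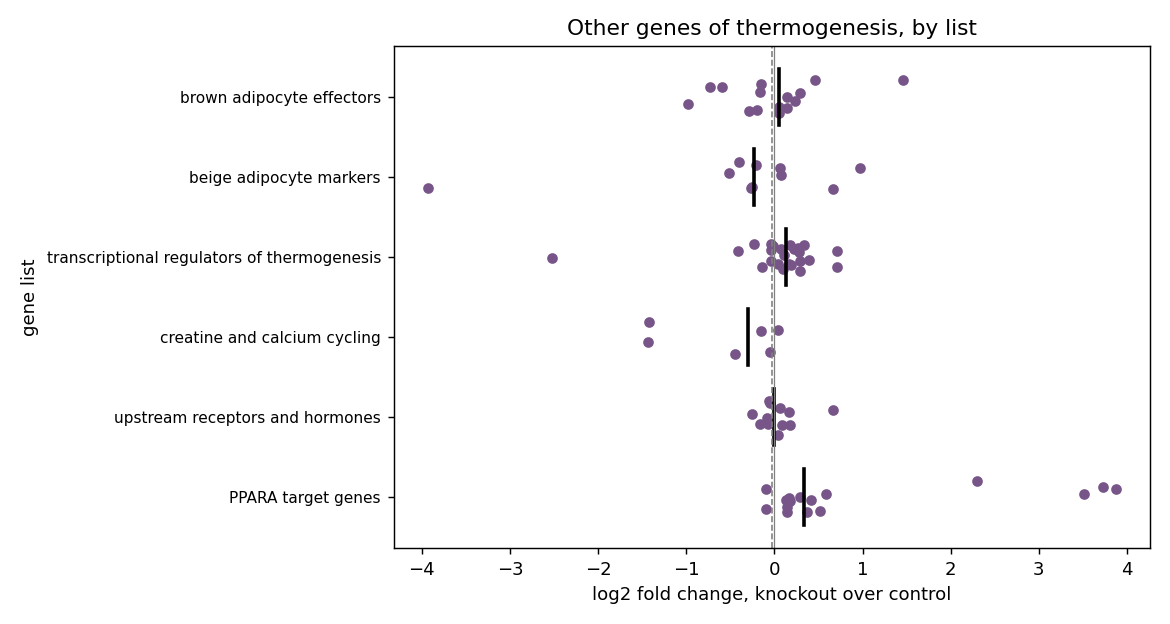
Log2 fold change of knockout over control for each tested gene of 6 lists, 1 point per gene with vertical scatter for legibility, the list's median as a black bar and the median of all tested genes (-0.026) dashed. The medians lie between -0.30 and 0.33, and the points far from 0 include Cited1, Plac8 and Cyp4a10.

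The remaining marker lists held no gene called by edgeR. Epididymal epithelium markers had lower means in knockouts in 5 of 5 tested cases (summed level 2.59 to 5460 CPM in knockouts and 31.3 to 14880.0 CPM in controls), though in 2 of 5 without control library 6, and endothelial markers in 8 of 8 (552.9 to 746.2 and 623.8 to 1130.5 CPM). Whichever library was left out, all 8 endothelial markers stayed lower. Of the 8, 4 had an unadjusted edgeR p under 0.05, against 10.1% of all tested genes. Macrophage markers were lower in 7 of 8 (836.6 to 1218 and 829.4 to 1541 CPM). Skeletal muscle markers were lower in 3 of 4 (28.2 to 47.1 and 37.2 to 84.7 CPM), and testicular germ cell markers were higher in 5 of 7 (14.3 to 193.6 and 1.99 to 304.1 CPM). Their part in the values of the 10 genes was not tested.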

How the data were processed

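The deposited table holds whole-number counts per Ensembl gene that had not been normalized. The submitters' processing notes name STAR 2.5.2 and mm10, and a stranded total RNA kit was used, per the labels' protocols. How reads were assigned to genes, and whether strand was used, is not given in the sources used here. Genes that overlap others are therefore uncertain.

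Symbols, coordinates and exon lengths (the union of a gene's exons) came from GENCODE M21. The 10 genes and all lists were chosen with earlier results of these data known. Low genes were removed by filterByExpr in edgeR 4.0.16 (minimum count 10, minimum total 15) under R 4.3.3. TMM scaling and a robust quasi-likelihood fit followed, with the group as its only term, with Benjamini-Hochberg adjustment over 16446 genes and a threshold of 0.05. CPM used scaled library sizes, and log2 CPM a prior count of 2. The test was tried on simulated data with 50 changed genes at each size of change. It recovered 8% at 1.5-fold, 52% at 2-fold, 86% at 4-fold and 96% at 8-fold, with 2 false calls among 123. The data themselves gave 10 calls, so the adjusted threshold was easier to reach on the simulated set. Alternatives used DESeq2 1.42.0, limma 3.58.1, other scalings and filters, a replicate block, an adipocyte covariate and left-out libraries. The counts of markers without 1 library were added after seeing the data. The lowest chi-square per gene between 2 libraries was 22.9, so none was a repeat of another. Exact and permutation tests used scipy 1.17.1.

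The text names the 10 genes, Sucnr1, up to 4 genes with the smallest p of each list and the 2 genes most like each tested gene. Pitx3, B230104I21Rik, Zic1, Lhx8, Cpt1b, the family members and the single markers fall outside that rule and were chosen after values were seen. One gene that the rule would name is not reported here.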

Additional observations from a re-analysis of the deposited data

Results flagged for a closer look

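In 70 groups of 5 libraries (35 named genes in each group), 13 had 1 library whose gap to the nearest other exceeded 0.71 of the group's range, Dixon's limit for 5 values. For independent, normally distributed values chance alone gives about 1 in 20. These groups hold unlogged CPM values from the same 10 libraries, so that share does not apply to them directly. Of the 13, 5 belonged to control library 3 and 2 to knockout library 6.

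In control library 3, the highest values were those of Ucp1 (0.923 CPM, the nearest control at 0.101), Dio2 (1.15 CPM, nearest 0.425), Ckb (68.8 CPM, nearest 37.9), Acot11 (7.92 CPM, nearest 3.30) and Cited1 (30.4 CPM, nearest 6.46). In knockout library 6 they were those of Elovl3 (1.08 CPM, nearest knockout 0.252) and Cyp4a10 (78.3 CPM, nearest 1.64). In knockout library 3 they were those of Cited1 (1.81 CPM) and Alpl (11.6 CPM), and in control library 6 those of Gamt (65.2 CPM) and Alpl (51.5 CPM). Cox8b was highest in knockout library 2 (5.54 CPM) and Acot11 in knockout library 5 (3.27 CPM).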

How the results depend on the processing

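Of the 7 tested genes, 6 kept their sign in all 24 alternatives. Cidea turned upward in 9: 0.00816 with limma-voom, 0.0667 with sample weights, 0.209 without control libraries 2 and 3 (added after seeing the data), 0.241 without knockout 6 and control 3, and in part of the fits that left out 1 library, which ran from -0.284 to 0.141. Its difference in mean log2 CPM was 0.0019 with a prior count of 0.5. Only DESeq2 called any of the 7, with 2. At 0.5 CPM 0 genes were near zero and at 2 CPM 3 were, against 1 at 1 CPM. Over all genes 10 were called, against 213 with DESeq2, 27 with sample weights, 16 without knockout 3 and control 6, 6 without controls 3 and 6, 4 without knockout 6 and control 3 and 3 without controls 2 and 3. Leaving out 1 library gave 3 (without control 3, knockout 3 or knockout 4) to 18 (without control 6). The replicate block gave 4 and called none of the 10 genes; same-numbered libraries did not deviate together in every pair (r from -0.113 to 0.632), so the numbers are not taken to pair samples. Among other named genes, signs turned for Gamt (0.217 with the adipocyte covariate, 0.0575 without controls 3 and 6, and -0.703 to 0.233 leaving out 1 library), Atp2a2 (0.0675, 0.0823, 0.0402 without knockout 6 and control 3, and -0.225 to 0.0106 leaving out 1 library), Adrb3 (-0.0301 and -0.0048) and Cyp4a10 (-0.458 without knockout 6 and control 3, and -0.425, without knockout 6, to 3.83 leaving out 1 library). The causes were not tested. The share of a list higher in knockouts, over all alternatives, ran from 18.2% to 57.1% for beige markers (40% as reported), 16.7% to 66.7% for upstream receptors (50%), 33.3% to 60% for brown effectors (53.3%), 0% to 50% for creatine and calcium cycling (16.7%), 62.5% to 75% for regulators (66.7%) and 50% to 93.8% for PPARα targets (87.5%).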

Other observations

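Of the promoter windows not shown above, Ppargc1a held a half-site of the cAMP response element 49 bases before its start. Letmd1 held CCAAT and AGGTCA, Gatm held AGGTCA on the minus strand and 2 CCAAT matches, and Prdm16 held CCAAT. The Letmd1 window had 48 CpG dinucleotides, more than 98.8% of all windows, where the median was 7, and the Dio2 window had 3. These counts describe letters and were not set against the levels by a test.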
